A study of Mus musculus with 48 samples.

Results

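The renin-angiotensin system was followed here through 9 genes: the precursor gene Agt, the enzyme genes Ace, Enpep and Lnpep, the prorenin receptor gene Atp6ap2, and the receptor genes Agtr1a, Agtr1b, Agtr2 and Mas1. They were chosen by symbol, and all 9 were found among the 56748 Ensembl identifiers of the count files. Of the 9, 7 had enough counts to be tested in liver and 6 in each fat depot. Agtr1b and Agtr2 were too low to be tested in any tissue, and within single tissues Mas1 was tested in liver alone.

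The RNA came from 3 tissues of male littermate mice, namely the liver, epididymal white fat (eWAT) and brown fat (BAT). The mice were hepAGT-/- (here KO), with angiotensinogen deleted in hepatocytes, or hepAGT+/+ (here WT). Every mouse, controls included, ate a Western diet with 21% milk fat and 0.2% cholesterol over 12 weeks. Housing was either room temperature (RT, 20 to 22 °C) or thermoneutral (TN, 30 °C), which gave 12 groups of 4 libraries. The Cre driver of the deletion, the strain and the age are not given in the sources used here, and all groups shared the diet. The labels number the libraries as biological replicates without naming the animals, so p-values measure the spread between these libraries.

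Angiotensinogen is a secreted protein made mainly by hepatocytes, and fat cells make it as well. Renin cuts it to angiotensin I, and angiotensin-converting enzyme, the product of Ace, cuts this to angiotensin II at the surface of endothelial cells. Angiotensin II acts through the receptors encoded by Agtr1a, Agtr1b and Agtr2. Aminopeptidases such as the product of Enpep shorten the peptide further, and the product of Mas1 is the receptor of a shorter peptide that opposes many effects of angiotensin II.

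Total counts per library, in units of 1000000 counts, ran from 23.7 to 36.5 in liver, from 25.3 to 39.4 in BAT and from 28.7 to 43.7 in eWAT. The sum of 10 hepatocyte markers reached 59800 to 101340 CPM (counts per 1000000 of the library total) in liver, against 7.72 to 2774 CPM in BAT and 28.9 to 5118 CPM in eWAT. The sum of 8 brown adipocyte markers was 3688 to 13967 CPM in BAT and at most 52.2 CPM in eWAT. The markers thus matched the labelled tissues, but some fat libraries also held transcripts of other tissues. Replicate 18 of eWAT WT RT had 959.9 CPM of epididymis markers, replicate 8 of eWAT WT TN had 2.07 CPM of mesothelium markers where the other eWAT libraries had at least 20.6 CPM, and skeletal muscle markers ranged from 1.70 to 8618 CPM in BAT.

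In liver, the precursor Agt fell in KO mice and no other member was called. Levels below are CPM scaled by TMM (trimmed mean of M values) within a tissue, except marker sums, which stay per library total. A call means an adjusted p under 0.05 in edgeR's quasi-likelihood test, with Benjamini-Hochberg adjustment across every gene tested in that fit. The genotype effect (KO minus WT) called 1 of 7 tested members at RT, where 0.0853% of all genes were called, and 1 of 7 at TN, where 3.18% were. The groups of 4 libraries did not overlap for 1 member at RT (5.83% of all genes) and for 1 member at TN (12.5%). Agt was that member in each of these counts.

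Agt (ENSMUSG00000031980, chr8:124556534-124569706, minus strand of GRCm38, GENCODE M21 annotation) is the gene that was deleted, and so checks the labels. The 250 bases before its start site, chr8:124569707-124569956 on the minus strand of GRCm38.p6 (RefSeq), are shown with the letters TATAAA in capitals.
Agt: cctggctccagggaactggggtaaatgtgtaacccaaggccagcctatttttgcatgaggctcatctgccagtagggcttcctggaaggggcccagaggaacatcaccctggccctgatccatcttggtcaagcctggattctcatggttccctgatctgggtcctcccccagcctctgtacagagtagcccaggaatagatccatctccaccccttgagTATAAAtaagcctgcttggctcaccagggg
The capitals begin 30 bases before the start. Among 32851 RefSeq windows of this length, 12.37% held TATAAA on either strand. Besides this TATA box, 4 motifs were searched on both strands: the CCAAT box, the GC box GGGCGG, the nuclear receptor half-site AGGTCA and the cyclic AMP response half-site TGACGT. None of those 4 was found in the Agt window.

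Agt in liver at RT was 276, 336, 424 and 434 CPM in the 4 WT libraries and 143, 150.2, 174 and 202 CPM in the 4 KO libraries. At TN it was 309, 371, 454 and 504 CPM in WT and 125, 164, 172 and 207 CPM in KO. The highest KO library thus stayed below the lowest WT library at each temperature. The KO mean was 45.5% of the WT mean at RT and 40.8% at TN. On the log2 scale Agt changed by -1.14 (SE 0.18, adjusted p = 0.0096) at RT and by -1.29 (SE 0.18, adjusted p = 0.00113) at TN. The call held in all 13 alternatives at RT, with adjusted p from 3.5e-06 to 0.0427, and in all 13 at TN, with adjusted p from 2.1e-08 to 0.00586. Counts are per gene, so which exons the remaining reads covered was not analysed here, and in bulk tissue fewer cells of a type and less RNA per cell cannot be told apart.

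**Figure D1:**
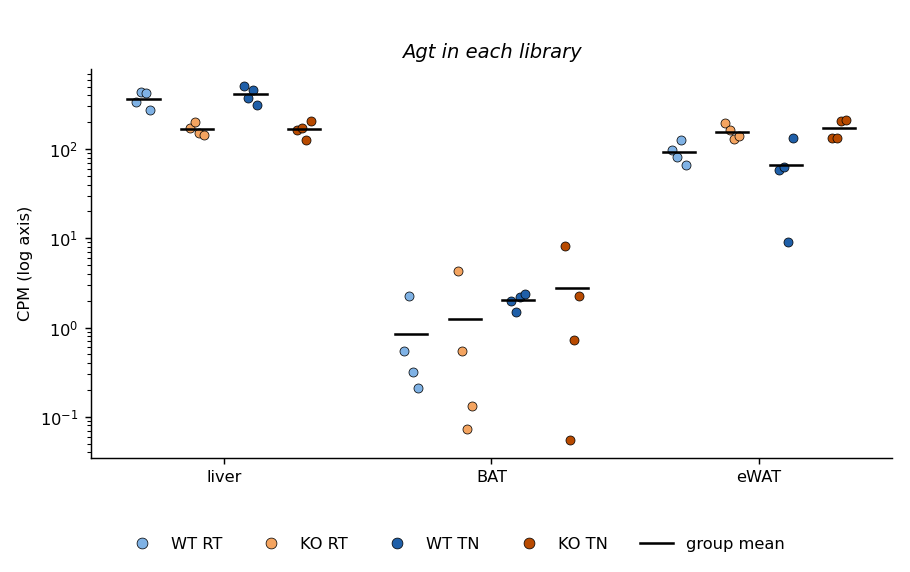
Agt in each of the 48 libraries, as CPM on a log axis, by tissue, genotype and housing, with 1 point per library and a bar at the mean of 4. In liver the KO points (125 to 207 CPM) lie below the WT points (276 to 504 CPM), in eWAT the KO points lie between 128 and 213 CPM, and in BAT all points are at or under 8.15 CPM.

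Hepatic Agt showed no temperature difference past the test. Its log2 change TN minus RT was 0.16 (SE 0.18, adjusted p = 0.921) in WT and 0.00 (SE 0.18, adjusted p = 0.998) in KO, and the interaction of genotype and temperature was -0.16 (SE 0.25, adjusted p = 0.936). No member was called by edgeR in liver for temperature in WT, for temperature in KO or for the interaction, where 0.0227%, 0.114% and 0% of all genes were called. At an unadjusted p under 0.05 edgeR had 1, 2 and 1 members, beside 7.25%, 10.5% and 7.33% of all genes. DESeq2 called 0 members in each, beside 0.426%, 2.06% and 0.0966% of all genes. The groups did not overlap for 0 of 7 members in WT (3.93% of all genes) and for 2 of 7 in KO (7.25%), which were Ace and Enpep.

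In eWAT, where Agt was next highest after liver, KO values lay on the high side without passing the test. At RT the 4 libraries had 65.9, 81.1, 96.4 and 126 CPM in WT and 128, 139, 164 and 196 CPM in KO, so that the groups did not overlap. The TN libraries had 8.98, 58.9, 62.1 and 134 CPM in WT and 132, 133, 204 and 213 CPM in KO, with the highest WT library inside the KO range. The log2 change was 0.76 (SE 0.54, adjusted p = 0.531) at RT and 1.37 (SE 0.54, adjusted p = 0.284) at TN. The lowest WT RT library was replicate 18, the one with epididymis markers, and without it the adjusted p at RT was 0.71. At TN the lowest value came from replicate 8 of WT, the library with few mesothelium markers, and without it the change was 1.01 (adjusted p = 0.147). That library also had the highest fibroblast and preadipocyte sum in eWAT, 5983 CPM, where no KO library passed 3550 CPM. Its hepatocyte sum, 1655 CPM, was the highest of its group. The part of these cells in the Agt values was not tested. None of the 13 alternatives of each called a change, the lowest adjusted p being 0.0509 at RT and 0.114 at TN.

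Liver and eWAT levels of Agt, set on a common scale by TMM over all 48 libraries, stood closer in KO than in WT mice. In WT the means were 424 ± 88.4 CPM (SD, n = 4) in liver and 74.4 ± 21.1 CPM in eWAT at RT, and 482 ± 99.3 and 53.2 ± 41.3 CPM at TN. In KO they were 194 ± 31.6 and 125 ± 25.3 CPM at RT, and 193 ± 40.7 and 137 ± 34.0 CPM at TN. The log2 genotype effect in liver minus that in eWAT was -1.88 (SE 1.03, adjusted p = 0.512) at RT and -2.69 (SE 1.03, adjusted p = 0.177) at TN, so neither difference was called. The 48-library fit takes 1 spread per gene from all tissues. BAT, with 2 to 318 counts of Agt per library, thus enters these SEs. Fitting only the libraries compared in edgeR called the difference at RT (adjusted p = 0.00717) and not at TN (adjusted p = 0.067).

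BAT held little Agt, and the highest values came from 1 library of each KO group. In WT it was 0.209, 0.320, 0.542 and 2.28 CPM at RT and 1.51, 1.96, 2.17 and 2.40 CPM at TN. In KO it was 0.0734, 0.133, 0.545 and 4.28 CPM at RT and 0.0551, 0.725, 2.27 and 8.15 CPM at TN, which overlapped WT at both temperatures. The highest values of KO RT, WT RT and KO TN belonged to replicates 9, 15 and 2, which also had the highest hepatocyte marker sums of their groups, 745, 329.5 and 2774 CPM. In WT TN it was otherwise: replicate 24, with the highest Agt (2.40 CPM), had the lowest hepatocyte sum, 101 CPM, and replicate 7 had the highest sum, 970.3 CPM, with 2.17 CPM of Agt. All 10 hepatocyte markers had counts in every BAT group, and the sums ran 16.2 to 329.5 CPM in WT RT, 7.72 to 745 CPM in KO RT, 101 to 970.3 CPM in WT TN and 23.9 to 2774 CPM in KO TN. Their part in the Agt values of BAT was not tested. The genotype effect was 0.57 (SE 1.26, adjusted p = 0.841) at RT and 0.48 (SE 1.22, adjusted p = 0.999) at TN, and it became -1.74 without replicate 9 of KO RT and -0.99 without replicate 2 of KO TN.

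Ace (ENSMUSG00000020681, chr11:105967945-105989964, plus strand) was the member called for housing temperature in BAT, and its upstream sequence is shown for that reason. The 250 bases before its first start site are chr11:105967698-105967947 of GRCm38.p6, plus strand. Capitals mark TATAAA, here on the minus strand and so read as TTTATA, and 4 copies of GGGCGG, the first 2 of which overlap.
Ace: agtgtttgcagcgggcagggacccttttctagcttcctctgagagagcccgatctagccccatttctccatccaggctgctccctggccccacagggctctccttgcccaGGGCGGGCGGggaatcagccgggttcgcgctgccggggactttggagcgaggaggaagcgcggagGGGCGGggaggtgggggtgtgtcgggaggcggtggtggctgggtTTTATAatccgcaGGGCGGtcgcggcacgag
GGGCGG was present in 32.74% of all windows. RefSeq gives a further start inside the gene, whose window at chr11:105974939-105975188 holds AGGTCA and, on the minus strand, CCAAT (14.02% and 33.85% of all windows) but not TATAAA. Gene counts do not tell the starts apart.

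Ace in BAT of WT mice was 5.74, 7.44, 9.86 and 11.2 CPM at RT and 19.1, 21.3, 24.3 and 27.2 CPM at TN. All 4 TN libraries lay above all 4 RT libraries, and Ace rose by 1.42 (SE 0.24, adjusted p = 0.00023) on the log2 scale, with a call in all 13 alternatives (adjusted p from 2.12e-07 to 0.00144). The median log2 change of all genes in this comparison was 0.11. In KO mice Ace was 15.6, 17.8, 18.0 and 21.6 CPM at RT, above every WT library at that temperature, and 15.9, 15.9, 17.7 and 31.5 CPM at TN. Its temperature change in KO was 0.15 (SE 0.23, adjusted p = 0.74).

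The genotype effect on Ace in BAT was 1.09 (SE 0.23, adjusted p = 0.0673) at RT and -0.18 (SE 0.23, adjusted p = 0.999) at TN. At RT it missed the threshold, while DESeq2 (adjusted p = 0.00247), edgeR with every gene kept (adjusted p = 0.0369) and the edgeR fit without WT RT replicate 12 (adjusted p = 0.0132) called it. These were the 3 calls among 13 alternatives, and the highest adjusted p was 0.256, in edgeR without WT RT replicate 18. The interaction of genotype and temperature was -1.27 (SE 0.33, adjusted p = 0.435) and was called in 0 of 20 alternatives, DESeq2 among them (adjusted p = 0.0998). A dependence of the temperature change on genotype was therefore not shown.

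Markers of blood vessels had higher median sums at TN than at RT in BAT of WT mice, where Ace rose, and also in KO mice, where Ace showed no change past the test. The 8 endothelium markers, none at 0 in any BAT group, summed to 166 to 523 CPM in WT RT, 355 to 1086 CPM in WT TN, 471 to 995 CPM in KO RT and 815 to 1441 CPM in KO TN. The 8 smooth muscle and pericyte markers, none at 0, summed to 315 to 512 CPM in WT RT, 610.3 to 1230.4 CPM in WT TN, 532 to 561 CPM in KO RT and 727 to 1127 CPM in KO TN. As sums per library total, the endothelium ranges overlapped between temperatures in both genotypes, and the smooth muscle and pericyte ranges in neither. Unlike the Ace values, these sums are not scaled by TMM. The TMM factors of BAT libraries ran from 0.751 (WT RT replicate 17) to 1.32 (WT TN replicate 7), and were higher at TN in both genotypes. Scaling by them would bring sums that are higher at TN closer to those at RT. The smooth muscle and pericyte ranges of KO would then overlap. At RT the smooth muscle and pericyte sums of KO lay above those of WT, as the Ace values did. The lowest library of each sum was in WT RT, as for Ace, and KO TN replicate 2 had both the highest Ace and the highest endothelium sum. Between temperatures in WT the macrophage sums (59.0 to 159 CPM at RT and 270.3 to 609 CPM at TN), the fibroblast and preadipocyte sums (262 to 394 CPM and 1043 to 1672 CPM) and the brown adipocyte sums (8502 to 13967 CPM and 4123 to 7849.5 CPM) did not overlap either, the last being lower at TN. The same held in KO, with macrophage sums of 69.8 to 84.7 CPM at RT and 226 to 345 CPM at TN. Fibroblast and preadipocyte sums in KO were 220 to 358 CPM and 832 to 1354 CPM, and brown adipocyte sums 8369 to 12615 CPM and 3688 to 6478 CPM. The part of these cells in the Ace values was not tested.

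**Figure D2:**
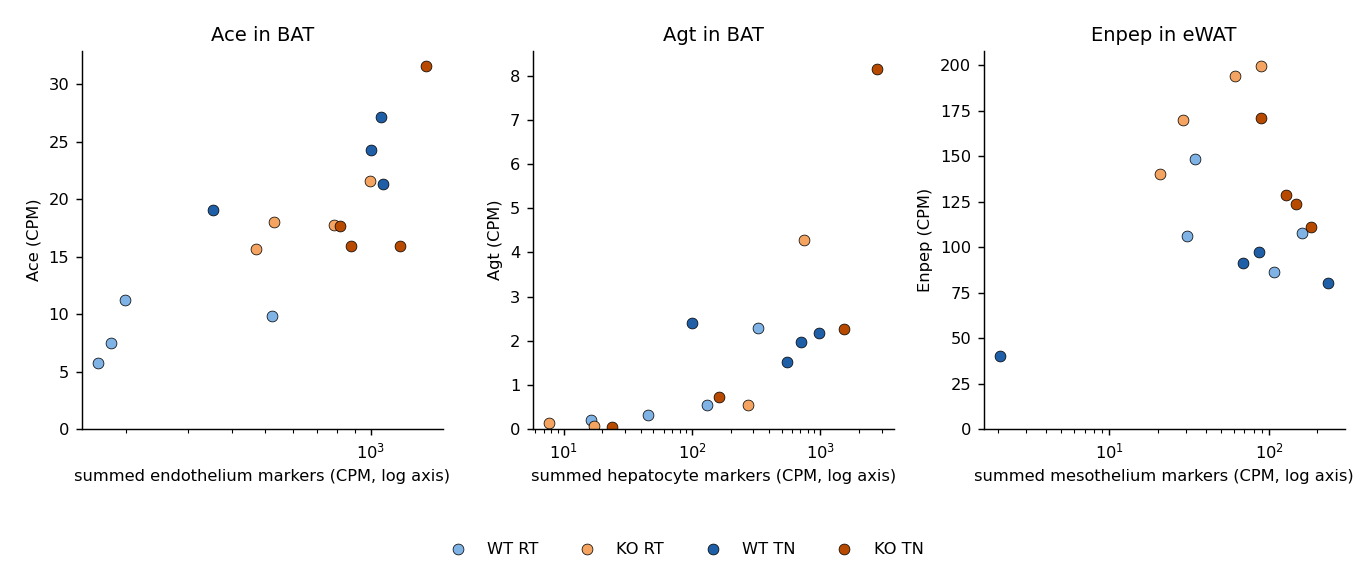
A member's CPM, scaled by TMM (linear axis), against the summed markers of a cell type, per library total (CPM, log axis), with 1 point per library. The panels show Ace and endothelium in BAT, Agt and hepatocytes in BAT, and Enpep and mesothelium in eWAT. The library highest for Ace (31.5 CPM) and for Agt (8.15 CPM) in BAT is also the one with the highest marker sum, while in eWAT the 4 KO RT libraries hold the 2 highest Enpep values at mesothelium sums of 20.6 to 89.3 CPM.

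Across the BAT comparisons few members were called. The genotype effect called 0 of 6 in the main edgeR fit at RT and 0 of 6 at TN, against 0.0887% and 0% of all genes. At an unadjusted p under 0.05 edgeR had 1 and 0 members, beside 19.4% and 5.24% of all genes, and DESeq2 called 1 (Ace) and 0, beside 5.44% and 0.111%. The temperature effect called 1 of 6 in WT, where 32.5% of all genes were called, and 0 of 6 in KO, where 15.2% were. In KO edgeR had 1 member at an unadjusted p under 0.05 (27.9% of all genes), Enpep, which DESeq2 called (19.1% of all genes). The interaction called 0 of 6 by edgeR (0% of all genes), with 1 member at an unadjusted p under 0.05 (10.2%) and 0 called by DESeq2 (0.116%). Groups did not overlap for 1 of 6 members for genotype at RT (9.26% of all genes), 0 at TN (3.39%), 2 for temperature in WT (27.2%) and 0 in KO (21.3%).

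Ace had its highest values in eWAT, where genotype made no difference past the test. WT libraries had 49.0, 52.2, 56.0 and 63.1 CPM at RT and 49.2, 63.3, 65.0 and 66.1 CPM at TN. KO libraries had 32.8, 48.2, 48.5 and 54.6 CPM at RT and 60.5, 62.3, 65.6 and 71.3 CPM at TN. All 4 KO TN libraries lay above the 4 KO RT libraries, by 0.50 (SE 0.14, adjusted p = 0.0709) on the log2 scale. Of 13 alternatives only DESeq2 called this change (adjusted p = 0.0257).

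Liver held little Ace, with 0 to 92 counts per library and group means of 0.585 to 2.11 CPM. In KO the 4 RT libraries had 0.322, 0.453, 0.693 and 0.871 CPM and the 4 TN libraries 1.27, 1.72, 2.56 and 2.87 CPM. The groups did not overlap, but the change of 1.84 (SE 0.73, adjusted p = 0.335) was not called.

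Enpep (ENSMUSG00000028024, chr3:129269175-129332720, minus strand) encodes aminopeptidase A, which trims angiotensin II to angiotensin III. Its upstream window is chr3:129332750-129332999 on the minus strand of GRCm38.p6. It is shown because Enpep was the one member whose genotype effect the main edgeR fit called as different between tissues. Capitals mark CCAAT, read as ATTGG, and TATAAA, read as TTTATA, both on the strand opposite to the one printed.
Enpep: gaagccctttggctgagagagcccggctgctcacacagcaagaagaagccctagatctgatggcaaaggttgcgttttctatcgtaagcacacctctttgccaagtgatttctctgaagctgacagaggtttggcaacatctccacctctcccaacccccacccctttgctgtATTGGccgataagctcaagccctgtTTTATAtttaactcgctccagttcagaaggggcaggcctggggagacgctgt
The GC box and both half-sites were not found in it.

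Enpep lay higher in KO than in WT in eWAT, and on the low side of WT in liver at TN. In eWAT at TN it was 40.1, 80.2, 91.6 and 97.4 CPM in WT and 111, 124, 129 and 171 CPM in KO, with no overlap. In eWAT at RT it was 86.5, 106, 108 and 148 CPM in WT and 140.4, 170.2, 194 and 199.7 CPM in KO, where the lowest KO library was below the highest WT library. The log2 change was 0.65 (SE 0.23, adjusted p = 0.137) at RT and 0.79 (SE 0.24, adjusted p = 0.131) at TN, so the main edgeR fit called neither. DESeq2 called both (adjusted p = 0.0296 and 0.0162). Of 13 alternatives each, 2 called the RT change and 1 the TN change. The lowest WT RT library for Enpep was replicate 18, the one with epididymis markers. Without it the RT change was 0.58 (adjusted p = 0.299 in edgeR).

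The 7 mesothelium markers, none at 0 in all libraries of an eWAT group, summed to 30.5 to 159 CPM in WT RT, 20.6 to 89.3 CPM in KO RT, 2.07 to 234 CPM in WT TN and 88.4 to 183 CPM in KO TN. These ranges overlapped between genotypes, and replicate 8 of WT TN was lowest both for the markers and for Enpep. Without that library the Enpep change at TN was 0.58 (adjusted p = 0.129). It was also the library with the highest fibroblast and preadipocyte sum in eWAT, 5983 CPM. The part of mesothelial cells or fibroblasts in the Enpep values was not tested.

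In liver at TN Enpep was 70.1, 80.8, 97.1 and 97.3 CPM in WT and 66.9, 69.2, 69.6 and 70.8 CPM in KO, so that the highest KO library was just above the lowest WT library. In liver at RT it was 62.8, 71.3, 71.6 and 83.1 CPM in WT and 76.2, 80.3, 86.4 and 88.5 CPM in KO, which overlapped. The genotype effect was -0.32 (SE 0.12, adjusted p = 0.163) at TN and 0.20 (SE 0.12, adjusted p = 0.625) at RT, and the interaction -0.52 (SE 0.17, adjusted p = 0.5). Between temperatures the change was 0.26 (SE 0.12, adjusted p = 0.685) in WT and -0.26 (SE 0.12, adjusted p = 0.462) in KO, where the groups did not overlap.

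Compared between tissues, the log2 genotype effect on Enpep at TN was lower in liver than in eWAT by a called difference of -1.14 (SE 0.29, adjusted p = 0.0329). It was the 1 member called of 7 in this comparison, in which 1.62% of all genes were called. The call was kept in 11 of 22 alternatives. It was lost on leaving out any of 10 single libraries, with adjusted p from 0.0502 to 0.0903: liver WT TN replicates 1 and 24, liver KO TN replicates 2, 4 and 5, eWAT WT TN replicates 6 and 8, and eWAT KO TN replicates 3, 5 and 21. Without replicate 8 of eWAT WT TN the difference was -0.93 (adjusted p = 0.0716). The call was also lost with the replicate number as a block in edgeR (adjusted p = 0.327), which matters if a number marks 1 animal.

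No other comparison of genotype effects between tissues called a member in the main edgeR fit. At RT 0 of 7 were called for liver against BAT, liver against eWAT and BAT against eWAT, where 0.393%, 0.278% and 2.79% of all genes were called. At TN 0 of 7 were called for liver against BAT and for BAT against eWAT, with 0.434% and 0% of all genes. At an unadjusted p under 0.05 edgeR had 1, 0 and 3 members at RT and 0 and 2 at TN, beside 14.6%, 11.3%, 17.8%, 12.7% and 6.87% of all genes in the same order. DESeq2 called 2.43%, 1.58%, 5.76%, 1.87% and 0.132% of all genes. Of the members it called 1 across these 5 comparisons, Ace for BAT against eWAT at RT, where the edgeR difference was 1.34 (SE 0.45, adjusted p = 0.0926). Fitting only the libraries compared, edgeR called Ace there (adjusted p = 0.0157) and Agt for liver against eWAT at RT (adjusted p = 0.00717). Without liver WT RT replicate 12, edgeR called Ace for liver against BAT at RT (adjusted p = 0.0289).

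Enpep in BAT was lower than in eWAT. WT libraries had 10.9, 14.6, 18.6 and 19.0 CPM at RT and 22.0, 22.9, 23.4 and 25.1 CPM at TN, and KO libraries had 9.55, 11.5, 17.7 and 20.5 CPM at RT and 19.3, 20.9, 21.3 and 32.0 CPM at TN. The TN libraries of WT all exceeded those at RT, and in KO 1 RT library reached into the TN range. The log2 temperature change was 0.57 (SE 0.23, adjusted p = 0.0683) in WT and 0.66 (SE 0.23, adjusted p = 0.0634) in KO, and DESeq2 called both (adjusted p = 0.0496 and 0.0323). Each was called in 3 of 13 alternatives. The genotype effect was -0.09 (SE 0.23) at RT and 0.00 (SE 0.23) at TN.

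Lnpep (ENSMUSG00000023845, chr17:17521410-17625050, minus strand) encodes insulin-regulated aminopeptidase, a protein of GLUT4 storage vesicles that also binds angiotensin IV. In eWAT at TN the WT libraries had 177, 182, 183 and 185 CPM and the KO libraries 235, 241, 276 and 277 CPM. The groups stood apart, and the 4 WT libraries were close to each other. KO exceeded WT by 0.50 (SE 0.12, adjusted p = 0.0576) on the log2 scale, which missed the threshold. DESeq2 (adjusted p = 0.00229), edgeR with no filter on low counts (0.0479) and edgeR with a filter of 1 CPM in 4 libraries (0.0446) called it. These were the 3 calls among 13 alternatives, and the highest adjusted p was 0.197, in edgeR without WT TN replicate 6. The sum of 8 mature adipocyte markers in these groups was 27836 to 30277 CPM in WT and 23560 to 35672 CPM in KO, which overlapped. The sum of 8 macrophage markers, none at 0, was 1583 to 2539 CPM in WT and 1222 to 1428 CPM in KO, and that of skeletal muscle markers 22.4 to 35.5 CPM and 11.8 to 17.2 CPM (Ckm at 0 in the 4 KO libraries), neither with overlap. Their part in the Lnpep values was not tested.

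At RT the eWAT values of Lnpep overlapped, with 168, 179, 189 and 248 CPM in WT and 183, 192, 223 and 224 CPM in KO, and the change was 0.07 (SE 0.12, adjusted p = 0.838). In KO mice all 4 TN libraries exceeded the RT libraries, by 0.32 (SE 0.12, adjusted p = 0.149) on the log2 scale. The interaction of genotype and temperature was 0.43 (SE 0.16, adjusted p = 0.619) and was not called.

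Lnpep in BAT of WT mice was 93.8, 106, 119 and 141 CPM at RT and 136, 142, 161 and 166 CPM at TN, ranges that overlapped. Its temperature change there was 0.40 (SE 0.17, adjusted p = 0.0782), which DESeq2 called (adjusted p = 0.0417), as 1 of 2 calls among 13 alternatives. In KO mice it was 89.3, 99.8, 103 and 121 CPM at RT and 100.4, 109, 139 and 162 CPM at TN. Over the 16 liver libraries Lnpep ran from 32.9 to 68.1 CPM, and no genotype or temperature change there exceeded 0.21 on the log2 scale.

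Atp6ap2 (ENSMUSG00000031007, chrX:12587801-12617049, plus strand), the prorenin receptor and an accessory subunit of the vacuolar proton pump, had group means of 28.1 to 30.1 CPM in liver and 24.5 to 27.5 CPM in BAT. In eWAT at TN it was 62.3, 63.2, 70.6 and 73.0 CPM in WT and 60.1, 60.7, 61.2 and 62.3 CPM in KO, groups that abutted without overlap. In eWAT at RT it was 59.5, 60.6, 67.1 and 70.2 CPM in WT and 48.4, 53.1, 57.0 and 61.6 CPM in KO, with 1 KO library inside the WT range. The log2 change was -0.14 (SE 0.09, adjusted p = 0.56) at TN and -0.23 (SE 0.09, adjusted p = 0.207) at RT, where 0 of 13 alternatives called it.

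In eWAT as a whole the main edgeR fit called no member in any comparison. Among the alternatives, edgeR called Enpep for genotype at RT and Lnpep for genotype at TN in some settings. The genotype effect called 0 of 6 at RT and 0 of 6 at TN, against 4.34% and 0.586% of all genes. The temperature effect called 0 of 6 in WT (0% of all genes) and 0 of 6 in KO (1.74%), and the interaction 0 of 6 (0%). At an unadjusted p under 0.05 edgeR had 2 and 3 members for genotype at RT and TN, 1 and 2 for temperature in WT and KO, and 1 for the interaction. The shares of all genes at that threshold were, in the same order, 17.7%, 13.7%, 6.99%, 17.5% and 7.60%. DESeq2 called 1 (Enpep) and 2 (Enpep and Lnpep) for genotype, 0 and 1 (Ace) for temperature and 0 for the interaction, beside 7.97%, 3.57%, 0.528%, 6.10% and 0.0634% of all genes. The groups did not overlap for 1 of 6 members for genotype at RT (10.9% of all genes), 3 at TN (9.51%), 0 for temperature in WT (4.10%) and 2 in KO (9.25%). The 3 members at TN were Enpep and Lnpep, higher in KO, and Atp6ap2, lower in KO.

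**Figure D3:**
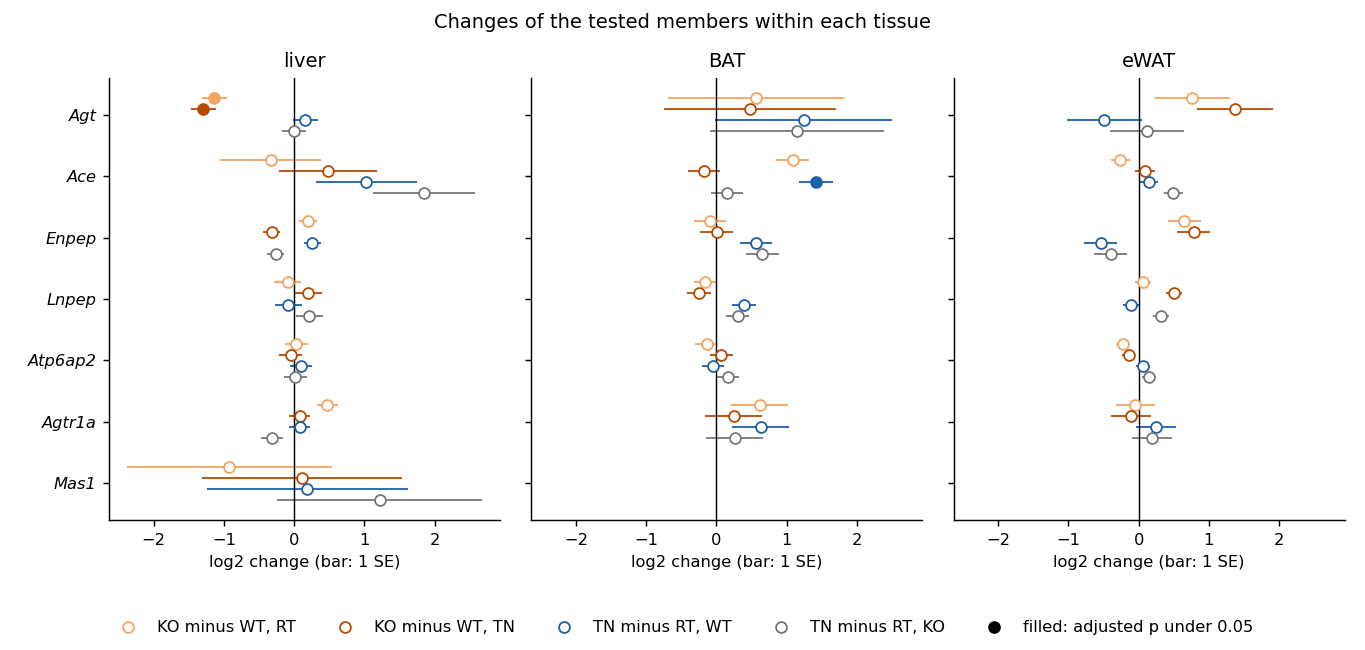
Log2 changes of the tested members (points, with bars of 1 SE) for genotype at RT and TN and for temperature in WT and KO, in liver, BAT and eWAT. The 3 filled points mark an adjusted p under 0.05, which are Agt for genotype in liver (-1.14 and -1.29) and Ace for temperature in WT BAT (1.42).

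Among the receptors, Agtr1a (ENSMUSG00000049115, chr13:30336441-30382867, plus strand) was the one with counts in all 48 libraries. It encodes the main receptor through which angiotensin II constricts vessels. In liver at RT it was 29.7, 33.0, 35.6 and 42.7 CPM in WT and 39.1, 44.9, 54.7 and 57.1 CPM in KO, so that the lowest KO library was below the highest WT library. The log2 change was 0.47 (SE 0.15, adjusted p = 0.253), called in 0 of 13 alternatives. In liver at TN the groups shared much of their range, with 28.8, 39.3, 40.0 and 40.9 CPM in WT and 35.7, 36.6, 39.5 and 45.7 CPM in KO, and the change was 0.08 (SE 0.15, adjusted p = 0.858).

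Both fat depots held less Agtr1a than liver. In BAT at RT it was 2.50, 2.71, 6.12 and 6.75 CPM in WT and 6.50, 6.85, 7.17 and 7.27 CPM in KO. In BAT at TN it was 2.28, 7.53, 8.56 and 9.69 CPM in WT and 5.49, 5.93, 8.37 and 13.5 CPM in KO. The groups overlapped at both temperatures, and the RT change was 0.62 (SE 0.41, adjusted p = 0.425). Over the 16 eWAT libraries it ran from 3.71 to 10.7 CPM, with group means of 6.37 to 7.82 CPM.

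Agtr1b (ENSMUSG00000054988, chr3:20314473-20367177, minus strand) and Agtr2 (ENSMUSG00000068122, chrX:21484544-21489164, plus strand) were at or near 0. Agtr1b, the other rodent gene for the type of receptor that Agtr1a encodes, had 0 counts in 47 of 48 libraries and 4 counts in BAT KO TN replicate 5. Agtr2, whose receptor is best known from fetal tissue, had 0 counts in all 16 liver libraries, 6 counts or fewer in 3 BAT libraries and 8 or fewer in 5 eWAT libraries, and 0 in the rest. A floor of 3 counts per library, the limit that a count of 0 allows, corresponded to 0.0780 to 0.120 CPM over the 12 groups, for counting error only. It assumes independent counts. The limit would be higher if both reads of a pair were counted, which the sources used here do not give. At this depth neither receptor was detectable beyond a few counts, and neither was tested.

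Mas1 (ENSMUSG00000068037, chr17:12841079-12868143, minus strand) was also sparse. In liver 12 of 16 libraries had counts, up to 46, and the group means were 0.387 ± 0.449 CPM (SD, n = 4) in WT RT, 0.202 ± 0.172 in KO RT, 0.444 ± 0.393 in WT TN and 0.478 ± 0.697 in KO TN. The SDs were of the size of the means, and no change of Mas1 in liver was called. It had counts in 6 of 16 BAT libraries and in 3 of 16 eWAT libraries.

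**Figure D4:**
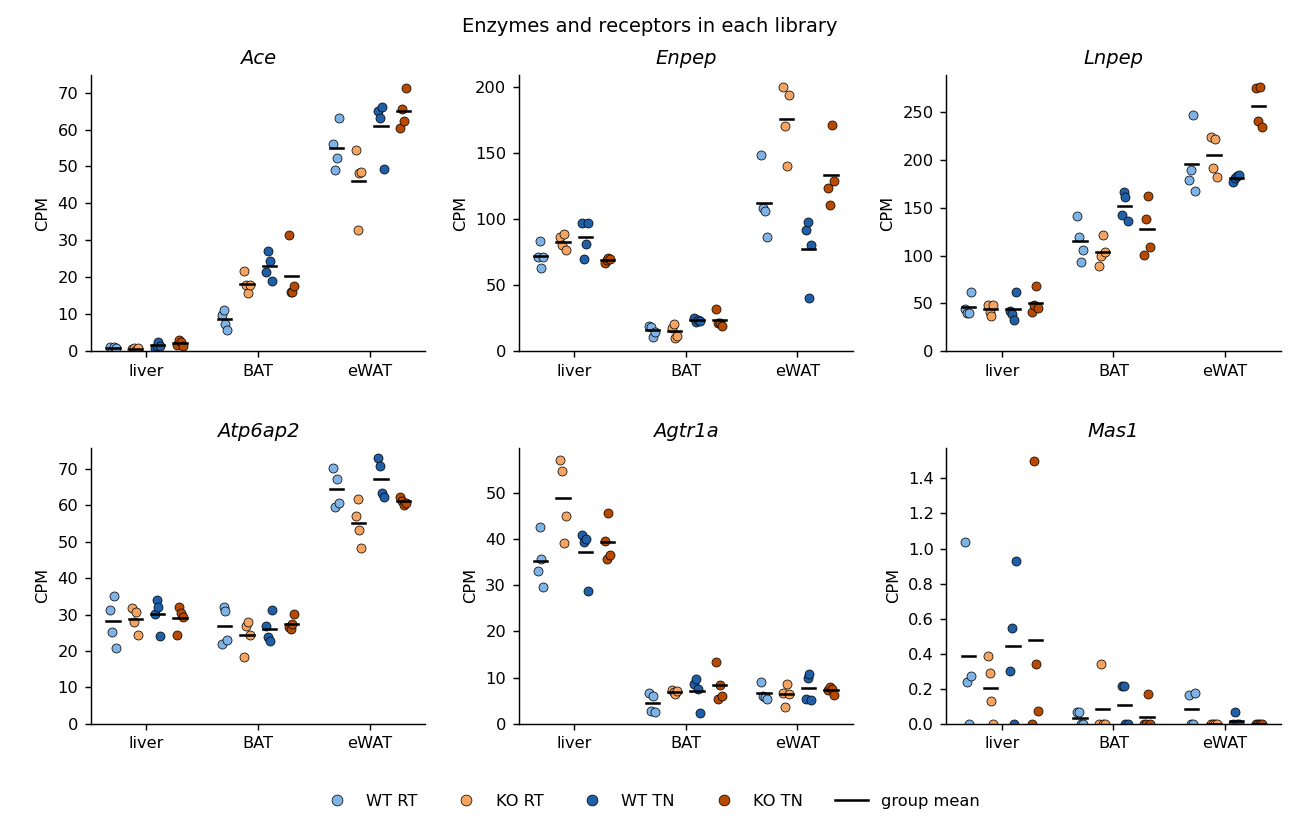
Ace, Enpep, Lnpep, Atp6ap2, Agtr1a and Mas1 in each library, as CPM scaled within each tissue on linear axes from 0, by tissue, genotype and housing, with 1 point per library and a bar at the mean of 4. Ace is highest in eWAT (32.8 to 71.3 CPM), Agtr1a in liver (28.8 to 57.1 CPM), and the lowest axis is that of Mas1, with points at 0 in every tissue.

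Between tissues, most members were called. At RT in WT mice edgeR called 5 of 7 members between liver and BAT, 5 of 7 between liver and eWAT, and 4 of 7 between BAT and eWAT, where 53.3%, 54.1% and 41.8% of all genes were called. At TN it called 6, 7 and 4 of 7, where 50.0%, 54.1% and 34.4% were. Tissue differences were thus common among genes at large.

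Agt ran from liver through eWAT to BAT. On the log2 scale of the 48-library fit, liver minus eWAT was 2.51 (SE 0.76, adjusted p = 0.0054) at RT and 3.18 (SE 0.78, adjusted p = 0.000742) at TN, and BAT minus eWAT was -6.32 (SE 0.94) at RT and -4.62 (SE 0.85) at TN. Ace had eWAT highest and liver lowest. For Ace, BAT minus eWAT was -2.27 (SE 0.34, adjusted p = 3.79e-07) at RT and -0.99 (SE 0.32, adjusted p = 0.0137) at TN, and liver minus BAT was -3.39 (SE 0.39) and -3.78 (SE 0.37). Whether these differences depend on temperature was not tested.

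Agtr1a was higher in liver than in BAT by 3.06 (SE 0.33) at RT and 2.54 (SE 0.32) at TN, while BAT minus eWAT was -0.13 (SE 0.31, adjusted p = 0.786) and 0.26 (SE 0.31, adjusted p = 0.561) and was not called. Lnpep was lower in liver than in BAT, with differences of -1.20 (SE 0.17) and -1.65 (SE 0.17), and lower than in eWAT, with -1.56 (SE 0.17) and -1.50 (SE 0.17). BAT and eWAT were not told apart for Lnpep (-0.36 (SE 0.17, adjusted p = 0.0819) at RT and 0.15 (SE 0.17, adjusted p = 0.526) at TN). Atp6ap2 was highest in eWAT, with BAT minus eWAT at -0.84 (SE 0.14) and -0.95 (SE 0.14). Its liver level was close to that of BAT, by 0.17 (SE 0.14, adjusted p = 0.317) at RT and 0.34 (SE 0.14, adjusted p = 0.0475) at TN, the latter called in 5 of 14 alternatives.

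Enpep was lowest in BAT, with BAT minus eWAT at -2.42 (SE 0.22) at RT and -1.31 (SE 0.21) at TN. Liver minus eWAT was -0.12 (SE 0.21, adjusted p = 0.652) at RT and 0.71 (SE 0.21, adjusted p = 0.00395) at TN. Mas1 was called between liver and eWAT at TN (adjusted p = 0.0369) on 55.0 and 2.00 counts in all, a call kept in 5 of 12 alternatives.

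Per kilobase of exon, levels can be compared between members within a tissue. In liver of WT mice at RT, Agt had 194 ± 39.9 CPM per kb (SD, n = 4), Enpep 15.3 ± 1.77, Agtr1a 12.7 ± 1.99, Atp6ap2 10.7 ± 2.39 and Lnpep 3.28 ± 0.733 CPM per kb. In eWAT of the same group Agt had 48.8 ± 13.6 CPM per kb, Atp6ap2 24.6 ± 1.96, Enpep 23.9 ± 5.53, Lnpep 13.9 ± 2.51, Ace 10.4 ± 1.15 and Agtr1a 2.36 ± 0.628 CPM per kb. In BAT the levels were 10.3 ± 2.05 CPM per kb for Atp6ap2, 8.14 ± 1.44 for Lnpep, 3.35 ± 0.810 for Enpep, 1.62 ± 0.799 for Agtr1a, 1.62 ± 0.464 for Ace and 0.443 ± 0.513 for Agt. Agt thus led in liver and eWAT and came last of these in BAT. Atp6ap2 and Enpep in eWAT, Agtr1a and Atp6ap2 in liver, and Agtr1a and Ace in BAT were neighbours in this order that differed by less than their SD.

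The rest of the pathway was read from a list of 26 further genes of angiotensin formation, breakdown and receptor handling, of which 25 were found. Renin (Ren1) had group means of at most 0.167 CPM. In liver the genotype effect called 0 of 17 tested genes by edgeR at RT, where 0.0853% of all genes were called, with 3 at an unadjusted p under 0.05 (10.2% of all genes). At TN it called 5 of 17, where 3.18% of all genes were called, 1 higher and 4 lower in KO (1.85% of all genes were called lower). Mme encodes neprilysin, which breaks down angiotensin peptides, and was 56.5, 93.1, 99.0 and 139 CPM in WT TN and 32.9, 32.9, 50.6 and 52.9 CPM in KO TN. These groups did not overlap, and the log2 change was -1.20 (SE 0.23, adjusted p = 0.00997). Anpep (aminopeptidase N) changed by -0.67 (SE 0.17), Mtus1, whose product binds the Agtr2 receptor, by -0.46 (SE 0.12), and Arrb2, an arrestin that turns receptors off, by 0.63 (SE 0.17). The 8 macrophage markers, none at 0, summed to 237 to 276 CPM in WT TN and 305 to 708 CPM in KO TN, without overlap, and their part in these changes was not tested. The median log2 change of the 17 list genes was -0.22 at RT and -0.13 at TN, beside 0.02 and 0.05 over all genes tested.

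In BAT the genotype effect called 0 of 20 tested list genes by edgeR at either temperature (0.0887% and 0% of all genes at RT and TN), with 4 and 1 at an unadjusted p under 0.05 (19.4% and 5.24% of all genes). The temperature effect called 5 of 20 in WT (3 higher, 2 lower), where 32.5% of all genes were called and 15.9% were called higher. In KO it called 4 of 20 (3 higher, 1 lower), where 15.2% were called and 6.64% were called higher. These shares are near those of all genes, and the genes below are a description of the list. Prcp, a carboxypeptidase that degrades angiotensin II, rose in both genotypes, from 6.99 ± 0.347 to 22.4 ± 6.32 CPM (SD, n = 4) in WT and from 7.68 ± 1.19 to 26.0 ± 10.4 CPM in KO, by 1.68 (SE 0.25, adjusted p = 8.31e-05) and 1.76 (SE 0.25, adjusted p = 0.000128) on the log2 scale. Arrb2 rose as well, by 1.47 (SE 0.21) in WT and 0.64 (SE 0.21) in KO. Ctsd, cathepsin D, an acid protease that can release angiotensin I, changed by -1.26 (SE 0.21) and -0.89 (SE 0.21). In WT Anpep rose by 1.67 (SE 0.33, adjusted p = 0.000958), and in KO Thop1, an oligopeptidase, rose by 0.55 (SE 0.14, adjusted p = 0.0142). The 8 macrophage markers, none at 0, summed to 59.0 to 159 CPM in WT RT, 270.3 to 609 CPM in WT TN, 69.8 to 84.7 CPM in KO RT and 226 to 345 CPM in KO TN, and their part in these changes was not tested. The median change of the list was -0.03 in WT and 0.08 in KO, beside 0.11 and 0.04 over all genes.

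In eWAT the genotype effect at RT called 3 of 20 list genes, where 4.34% of all genes were called. All 3 were lower in KO, as were most genes called (3.13% of all genes). They were Ctsd, which changed by -0.80 (SE 0.19), Nln (neurolysin), by -0.63 (SE 0.13), and Arrb1 (an arrestin), by -0.63 (SE 0.12). Temperature in KO called 1 of 20, where 1.74% of all genes were called and 1.02% were called higher. That gene, Arrb1, rose by 0.83 (SE 0.12, adjusted p = 0.0129). The macrophage marker sum was 1016 to 1411 CPM in WT RT, 792 to 1057 CPM in KO RT and 1222 to 1428 CPM in KO TN, and its part was not tested. The median change of the list for genotype at RT was -0.21, beside 0.00 over all genes, with 7 of 20 at an unadjusted edgeR p under 0.05 (17.7% of all genes). At TN genotype called 0 of 20 (0.586% of all genes), with 9 at an unadjusted p under 0.05 (13.7% of all genes). The median change at TN was -0.29, beside 0.01 over all genes.

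The genes whose pattern was most like each member's were found by Pearson's r of mean log2 CPM over the 12 groups, among 13074 genes. The 12 points share 3 tissues, so that these values mostly describe the tissues. For Agt they were Gpt2 (r = 0.995), Fancl (r = 0.990) and Rora (r = 0.990), for Ace Clip3 (r = 0.995) and Slc35e4 (r = 0.991), and for Agtr1a Fgd6 (r = 0.991), Slc25a37 (r = 0.990) and Pex26 (r = 0.989). Those of Enpep were Gca (r = 0.981), Gata6 (r = 0.979) and Ppp1r16a (r = 0.978), those of Lnpep Ckap5 (r = 0.995), Mfap1a (r = 0.993) and Klf6 (r = 0.992), and those of Atp6ap2 Rad50 (r = 0.993), Lta4h (r = 0.992) and Ubqln2 (r = 0.992). Over the 16 liver libraries, which share 4 groups and differ in depth, the genes most like Agt were Agpat3 (r = 0.912), Sulf2 (r = 0.909) and Mtmr10 (r = 0.898). Over the 16 eWAT libraries they were Prlr (r = 0.944), Orm3 (r = 0.913) and Penk (r = 0.906). Agt was far lowest there in WT TN replicate 8, at 8.98 CPM against 58.9 CPM or more in the other libraries. How far these r rest on that library was not tested.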

How the data were processed

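Total RNA of 48 tissue samples was made into mRNA libraries and sequenced in paired-end mode, per the labels' protocols. The deposited values are raw counts per Ensembl gene, 1 file per sample. The submitters' processing notes name fastp, STAR 2.6.1d, featureCounts 1.5.0-p3 and GRCm38 (mm10). The annotation release and strand setting are not given in the sources used here. Positions and exon lengths came from GENCODE M21 and symbols from a table of gene names, in which 52073 of 56748 identifiers (91.76%) had a name. Of values from 1 to 10, 75.9% were even, and whether reads or pairs were counted is not given in the sources used here. Depth is given with the results.

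Counts were tested with edgeR 4.0.16 (limma 3.58.1, R 4.3.3): filterByExpr (minimum count 10), scaling by TMM, robust quasi-likelihood F tests, two-sided, and Benjamini-Hochberg adjustment over all genes tested (17594 in liver, 18032 in BAT, 18933 in eWAT). Each tissue was fitted over its 16 libraries. Tissues were compared in 1 fit over all 48 libraries and 21910 genes. SEs are the log2 change divided by the square root of F. The script was tested on simulated data. Alternatives were RLE scaling, no filter, a filter of 1 CPM in 4 libraries, DESeq2 1.42.0, only the libraries compared, the replicate number as a block, and leaving out each library.

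All 9 members are named. Of the pathway list, at most the 4 genes with the smallest adjusted p per comparison are named, and for likeness the 3 genes of highest r, of which 1 is not reported here. The members, lists and tests were chosen with earlier results of these data known. Promoter sequences are RefSeq's, for 8 of the 9 members, cut to the 250 bases before the start.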

Additional observations from a re-analysis of the deposited data

Results flagged for a closer look

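In 16 of 90 groups of 4 libraries, a member's highest or lowest value stood apart from the other 3 by more of the range than Dixon's 95% critical value allows. Chance alone does this in about 1 of 20 groups, and 10 of the 16 were groups in which a single library had any count.

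Among members with counts throughout, Agtr1a was 28.8 CPM in liver WT TN replicate 24, below the other 3. Agt was 4.28 CPM in BAT KO RT replicate 9 and 2.28 CPM in BAT WT RT replicate 15, above the others of their groups. Ace and Enpep were both high in BAT KO TN replicate 2, at 31.5 and 32.0 CPM, and this library also had the highest hepatocyte, endothelium and skeletal muscle marker sums in BAT. Ace was low in eWAT WT TN replicate 23, at 49.2 CPM.

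The other values came from 2 to 10 counts in a single library of a group. Agtr1b was 0.116 CPM in BAT KO TN replicate 5. Agtr2 was 0.0670 CPM in BAT WT RT replicate 15, 0.112 in BAT KO TN replicate 4, 0.162 in BAT WT TN replicate 6, 0.0559 in eWAT KO RT replicate 16, 0.117 in eWAT WT RT replicate 18 and 0.224 in eWAT WT TN replicate 8. Mas1 was 0.341 CPM in BAT KO RT replicate 10, 0.167 in BAT KO TN replicate 4 and 0.0697 in eWAT WT TN replicate 7.

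The log2 genotype effect on Enpep at TN differed between liver and eWAT by -1.14 (SE 0.29, adjusted p = 0.0329) in edgeR's test of the difference, lower in liver. With the replicate number as a block it was not called.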

How the results depend on the processing

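Of the alternatives run, 401 counts of members called were within 1.5 times the value reported and 31 were not, and of the log2 changes 1028 kept direction and side of the threshold, 25 became called, 29 lost the call and 7 turned. Agt in liver and Ace for temperature in WT BAT kept their calls in all alternatives. For genotype in BAT at RT, 1 member (Ace) was called with no filter and by DESeq2, and 0 to 1 on leaving out 1 library (1 without WT RT replicate 12). For temperature in WT BAT, DESeq2 called 3 (Ace, Enpep and Lnpep), the fit of only the libraries compared 2 (Ace and Enpep), and leaving out 1 library gave 1 to 3 (3 without WT RT replicate 12, 2 without WT TN replicate 24). For temperature in KO BAT, 1 (Enpep) was called with no filter and by DESeq2, and 0 to 1 on leaving out 1 library (1 without KO RT replicate 10).

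In eWAT, genotype at RT gave 1 (Enpep) by DESeq2 and with only the libraries compared, genotype at TN gave 1 (Lnpep) with no filter or the 1 CPM filter and 2 by DESeq2, and temperature in KO gave 1 (Ace) by DESeq2. For differences of the genotype effect at RT, liver against eWAT gave 1 (Agt) with only the libraries compared, BAT against eWAT gave 1 (Ace) by DESeq2 and with only the libraries compared, and liver against BAT gave 0 to 1 on leaving out 1 library (1, Ace, without liver WT RT replicate 12). The cause of these differences was not tested.

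On leaving out 1 library, the log2 change of Agt in BAT for genotype ran from -1.74 (without KO RT replicate 9) to 1.78 at RT and from -0.99 (without KO TN replicate 2) to 0.89 at TN. For its genotype effect at RT, liver minus BAT ran from -2.87 to 0.67, the latter without BAT KO RT replicate 9. BAT minus eWAT ran from -2.54 to 1.00, and was 0.02, 0.16, 0.15 and 1.00 without BAT KO RT replicates 10, 14 and 19 and BAT WT RT replicate 15. Agt in BAT rests on 2 to 318 counts per library, which limits it.

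Replicate numbers are shared between tissues. Each number belonged to 1 genotype and housing in every tissue where it occurred, as a number for an animal would. Over 35 pairs of same-numbered libraries the correlation of deviations from group means ran from -0.393 to 0.218 (median 0.0239), with 2 pairs over 0.1. Weak correlations cannot exclude that a number marks 1 animal. The main fit over 48 libraries did not pair the samples, so its p-values between tissues may be off if tissues shared animals. With the replicate block, the count for the genotype effect at TN, liver against eWAT, was 0 (leaving out 1 library gave 0 to 1), with Enpep at -0.87. The block also ended the TN calls for Atp6ap2 between liver and BAT (0.34), for Enpep (0.28) and Mas1 between liver and eWAT, and for Ace between BAT and eWAT (-0.83). No paired analysis was possible within a tissue because groups of 1 tissue share no replicate number.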
